A study of Homo sapiens with 6 samples.

Results

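Nuclear factor kappa B (NF-kB) factors, their inhibitors and their inflammatory target genes were examined in LX-2, an immortal cell line derived from human hepatic stellate cells, after transfection with AEBP1 siRNA or with scrambled siRNA. The set holds 34 genes named by symbol (NF-kB subunits, inhibitors, chemokines, cytokines, adhesion molecules and other targets, without the interleukin-1 family), out of 24789 genes and assembled loci with values, and all 34 symbols were found. The tested libraries were 3 labelled AEBP1 siRNA (genotype label AEBP1 knockdown) and the control libraries 3 labelled scrambled siRNA (genotype label WT). All 6 received their siRNA at 50 nM by lipid transfection, and RNA was taken after 48 hours. LX-2 is a single line. No source used here says that each library had its own transfection, so the p-values speak only of the spread among these libraries, part of which may be technical.

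NF-kB is a family of dimeric transcription factors built from RELA, REL, RELB, NFKB1 and NFKB2. Inhibitors of the IkB family hold the dimers in the cytoplasm until upstream kinases have them degraded, after which the dimers enter the nucleus and switch on chemokines, cytokines, adhesion molecules and their own inhibitors. In injured liver, stellate cells that have become activated show NF-kB activity and secrete chemokines that draw leukocytes. In mouse macrophages AEBP1 has been described as binding the inhibitor encoded by NFKBIA and raising NF-kB activity, and the comparison asks what the AEBP1 siRNA changes in the transcriptome of LX-2.

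Libraries held 34433510 to 49432960 counts, and levels below are in CPM (counts scaled to library size, as edgeR computes them) unless FPKM (per length, as the authors deposited it) is named. AEBP1 (ENSG00000106624), the gene targeted by the siRNA, was at 29.7, 27.7 and 48.3 CPM in AEBP1 siRNA 1, 2 and 3, as labelled, against 53.6, 48.7 and 25.1 CPM in the scrambled libraries 1, 2 and 3. The libraries labelled AEBP1 siRNA 3 and scrambled 3 thus went against their labels, and library names below are those of the labels. Whether these labels were exchanged was not tested, and if they were, every difference between the labelled groups would mix both siRNAs. The library labelled AEBP1 siRNA 1 stood apart on the first principal component, which held 44.7% of the variance, with a score of -41.1 where the others lay between 1.16 and 11.2. Of the 10 stellate markers COL1A1, VIM, TIMP1, PDGFRB and COL3A1 were well above the rest, ACTA2 averaged 4.19 and 3.85 CPM in the AEBP1 siRNA and scrambled libraries, and COL1A2 and PDGFRA were also low. In addition LRAT, the enzyme that makes retinyl esters in quiescent cells, had no counts and the muscle filament gene DES did not pass the filter on low counts. Markers of leukocytes and macrophages summed to between 22.5 and 26.5 CPM in the AEBP1 siRNA libraries and between 19.5 and 24.6 CPM in the scrambled libraries over 11 genes, nearly all of it CD68, and 3 of the 11 passed the filter. The pan-leukocyte gene PTPRC had 0 counts in the AEBP1 siRNA libraries and 6 in scrambled 1 alone. Over 8 genes, epithelial markers summed to between 222 and 291 CPM in the AEBP1 siRNA libraries. In the scrambled libraries they summed to between 215 and 238 CPM, and KRT18 made up most of the sum in both groups. KRT8, KRT7 and SOX9 also passed the filter, averaging 34.6, 16.2 and 16.2 CPM over the 6 libraries. EPCAM, KRT19 and CDH1 were near 0 and CFTR was at 0. Hepatocyte markers summed to between 10.2 and 12.8 CPM in the AEBP1 siRNA libraries and between 8.58 and 12.7 CPM in the scrambled libraries. Of these 8 genes only SERPINA1 and ASGR1 passed the filter. Endothelial markers summed to between 1.64 and 2.05 CPM in the AEBP1 siRNA libraries and between 1.57 and 2.54 CPM in the scrambled libraries. Whether any cells other than LX-2 were present was not tested.

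Promoter sequences are shown first for CXC chemokines that share a run of letters, for the inhibitor NFKBIA, and for a few targets described in detail below. Of the 34 genes, 26 had an entry in the RefSeq promoter table (GRCh38.p14, 250 bases before to 50 after a start), with 38 promoters in all. The count table itself was made on hg19, per the submitters' processing notes, and holds no coordinates. A common form of the NF-kB site, GGG and CC with any 5 bases between them, was searched on both strands. The stretches below are given 5′ to 3′ on the gene's strand, and capitals mark the match. Of the 6 CXC chemokines, all on chromosome 4, 5 held the same run of letters, in capitals, between 78 and 91 bases before the start. CXCL8 lacked it in this window and matched the looser form 117 bases before its start, and is not printed. The genes CXCL1, CXCL2 and CXCL3 shared most of the flanking bases too.
CXCL1, chr4:73869294-73869343, plus strand: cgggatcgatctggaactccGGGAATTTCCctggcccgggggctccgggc
CXCL2, chr4:74099244-74099293, minus strand: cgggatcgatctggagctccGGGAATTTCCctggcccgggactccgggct
CXCL3, chr4:74038739-74038788, minus strand: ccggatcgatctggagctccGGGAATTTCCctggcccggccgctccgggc
CXCL5, chr4:73998739-73998788, minus strand: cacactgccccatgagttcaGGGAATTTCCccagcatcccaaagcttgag
CXCL6, chr4:73836568-73836617, plus strand: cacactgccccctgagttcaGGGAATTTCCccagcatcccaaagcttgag
The inhibitor gene NFKBIA carried the same letters on the opposite strand, 81 bases before the start. In IL6, CSF2, VCAM1 and BIRC3 the looser form matched with other letters, and VCAM1 held several matches side by side.
NFKBIA, chr14:35404801-35404850, minus strand: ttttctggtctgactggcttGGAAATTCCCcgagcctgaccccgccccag
IL6, chr7:22727107-22727156, plus strand: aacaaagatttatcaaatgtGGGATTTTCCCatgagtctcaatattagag
CSF2, chr5:132073684-132073733, plus strand: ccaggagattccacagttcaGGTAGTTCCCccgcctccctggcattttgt
VCAM1, chr1:100719645-100719694, plus strand: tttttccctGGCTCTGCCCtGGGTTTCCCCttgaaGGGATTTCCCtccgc
BIRC3, chr11:102317265-102317314, plus strand: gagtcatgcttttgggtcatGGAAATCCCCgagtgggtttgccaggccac

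GGG, any 5 bases and CC were found in 37 of 38 member promoters (97.4%) and in 20602 of all 35116 promoters (58.7%). The stricter form, GGGA, any 4 bases and CC, was in 28 of 38 (73.7%) and in 25.6% of all promoters. The exact run in capitals under CXCL1, picked after it had been seen in the chemokines, was in 10 of 38 (26.3%), those of CXCL1, CXCL2, CXCL3, CXCL5, CXCL6, NFKBIA, NFKBIB, NFKBIZ, NFKB1 and REL, and in 51 of 35116 (0.145%). The genes were picked as NF-kB factors and targets, so a higher share than in all promoters is no finding about them. Matches on both strands and between the forms overlap, and several genes have more than 1 promoter. Near copies such as CXCL1, CXCL2 and CXCL3 are counted separately. A match is a description of letters and not a measured binding site.

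CXCL1, CXCL2 and CXCL3 are close copies, which bears on how far their counts can be told apart. Over coding sequences of 321 bases in GENCODE 29, CXCL1 was identical to CXCL2 at 93.5% of positions and to CXCL3 at 90.7%, and CXCL2 to CXCL3 at 94.4%. Coding bases 121 to 210 differ among the 3 at 5 of 90 positions, in capitals.
CXCL1: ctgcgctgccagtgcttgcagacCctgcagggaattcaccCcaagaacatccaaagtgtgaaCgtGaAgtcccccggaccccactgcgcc
CXCL2: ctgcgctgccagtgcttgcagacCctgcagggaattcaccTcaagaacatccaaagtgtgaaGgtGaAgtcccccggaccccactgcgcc
CXCL3: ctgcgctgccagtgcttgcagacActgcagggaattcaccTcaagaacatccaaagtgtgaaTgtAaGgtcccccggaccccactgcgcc
Of all windows of 50 bases in the whole CXCL1 transcript, 5.73% also occurred in CXCL2 and 0.573% in CXCL3. Of those in CXCL2, 4.62% also occurred in CXCL3, and of those in CXCL3, 5.26% in CXCL2. Reads lying wholly in such stretches cannot be told apart by sequence. The length of 50 was chosen here, so the share of reads concerned was not measured, and the levels of these 3 genes are uncertain to an unknown extent. CXCL5 and CXCL6 were 87.4% identical, and CCL2 and CCL7 79.1%, with no shared window of that length.

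LX-2 expressed most of the set at substantial levels whatever the siRNA. By mean FPKM over the 6 libraries, CXCL8, the neutrophil-attracting interleukin 8, was the highest member at 290 FPKM, above 99.3% of detected genes. It was followed by ICAM1, the receptor on which leukocytes arrest, at 127 FPKM, and by NFKBIA, IER3 (an immediate-early gene of stress and survival) and NFKB2 at 88.9, 85.7 and 62.3 FPKM. At the other end stood CXCL6, CCL20, VCAM1 and CCL7 at 0.926, 0.65, 0.24 and 0.111 FPKM. The chemokines therefore spanned from the most to the least abundant member. VCAM1, the second leukocyte adhesion receptor of the set, was far below ICAM1.

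**Figure D1:**
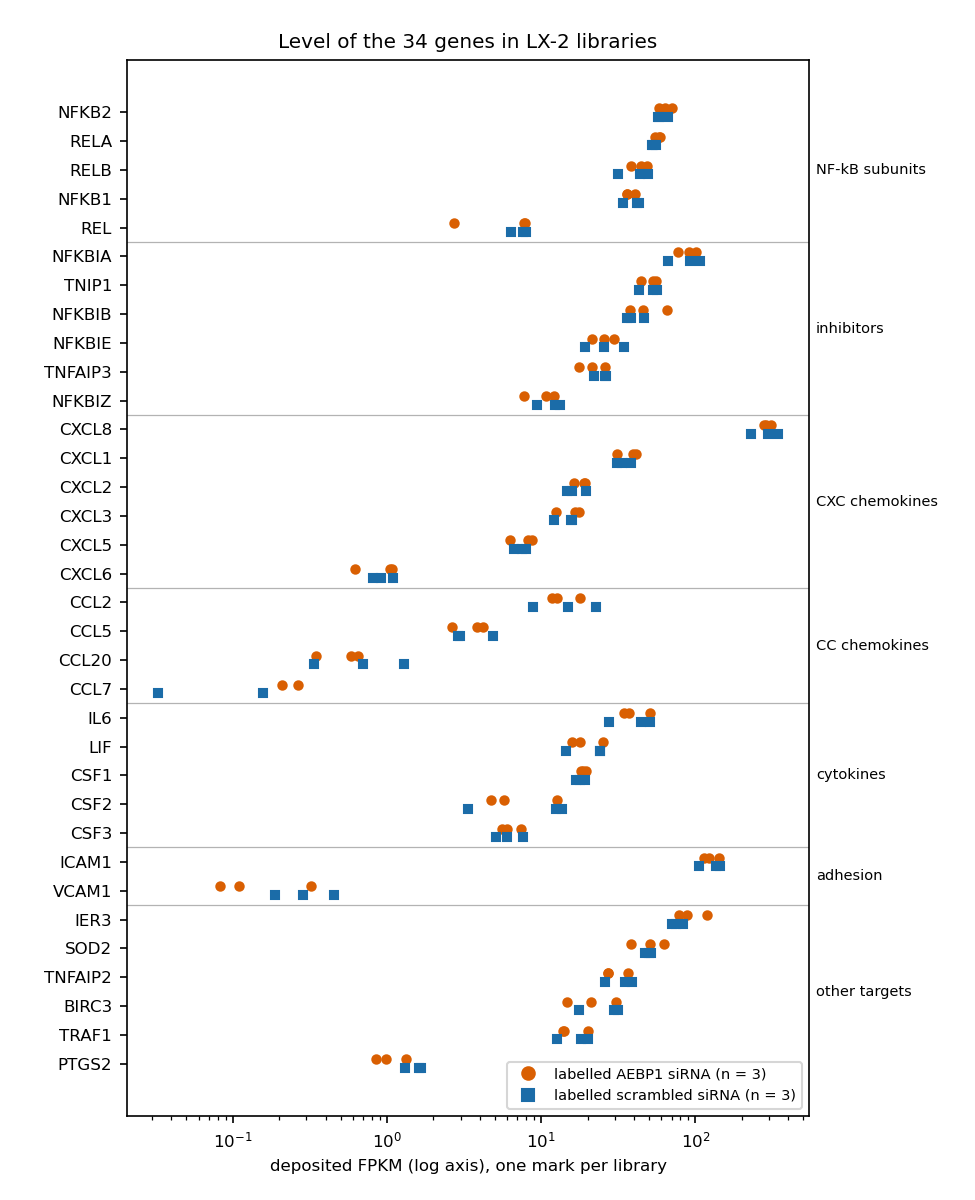
Deposited FPKM (log axis) of each of the 34 genes in each library, grouped by role; circles are the 3 libraries labelled AEBP1 siRNA and squares the 3 labelled scrambled siRNA, and libraries with 0 FPKM (CCL7 in AEBP1 siRNA 1 and scrambled 3) are not drawn. CXCL8 at 290 FPKM on average lies far to the right of VCAM1 at 0.24 FPKM, and the ranges of both labels overlap in every row but CCL7, whose 0 values are not drawn.

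Between the labelled groups none of the 33 genes tested passed the threshold, and CCL7 was not tested. One member, PTGS2, had an edgeR unadjusted p under 0.05 among the 33 tested, and 0 were called at an adjusted p under 0.05 (Benjamini-Hochberg, over all genes tested) by edgeR, DESeq2 or limma-voom. In the whole table edgeR called 0.00615% of 16250 genes, and 1.33% had an unadjusted p under 0.05. The labelled groups overlapped for every member tested, where 5.93% of all genes did not overlap (2.9% lower and 3.03% higher in the AEBP1 siRNA libraries). Estimates were lower in the AEBP1 siRNA libraries for 20 of the 33 and for 50.6% of all genes. The median log2 fold change (AEBP1 siRNA minus scrambled) was -0.045 for the members and -0.0023 for all genes. At the middle of the set, 95% intervals reached 0.43 on the log2 scale to either side of the estimate. The intervals ran from narrow ones, such as that of RELA, to that of VCAM1, so the lack of calls does not show that levels were equal.

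Among the 5 NF-kB subunits, RELA, the main activating subunit, was the steadiest gene of the whole set. It was at 179, 163 and 166 CPM in the AEBP1 siRNA libraries, against 167, 160 and 161 CPM in the scrambled libraries, with a log2 fold change of 0.057 and a 95% interval of -0.15 to 0.26. NFKB2, the precursor of the p52 subunit, was at 242, 197 and 223 CPM in the AEBP1 siRNA libraries, against 234, 211 and 192 CPM in the scrambled libraries. NFKB1, the precursor of the p50 subunit, was at 156, 155 and 178 CPM in the AEBP1 siRNA libraries, against 188, 184 and 150 CPM in the scrambled libraries. Its low libraries were scrambled 3 and AEBP1 siRNA 1 and 2, so the groups overlapped. RELB, partner of p52, ranged from 94.1 to 119 CPM in the AEBP1 siRNA libraries and from 78.6 to 124 CPM in the scrambled libraries. REL, the subunit c-Rel, was at 33.7, 90 and 91.2 CPM in the AEBP1 siRNA libraries, against 77.4, 94.9 and 89 CPM in the scrambled libraries. AEBP1 siRNA 1 alone was low. With all libraries the log2 fold change of REL was -0.28 (SE 0.326), and without AEBP1 siRNA 1 it was 0.057.

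The inhibitors carry the feedback of the pathway, since NF-kB itself switches several of them on. NFKBIA, which encodes IkB-alpha, was at 157, 132 and 177 CPM in the AEBP1 siRNA libraries, against 189, 161 and 115 CPM in the scrambled libraries (log2 fold change 0.0052, SE 0.188). TNIP1, which binds the deubiquitinase A20, was at 162, 133 and 169 CPM in the AEBP1 siRNA libraries, against 174, 160 and 132 CPM in the scrambled libraries. For both genes scrambled 3 and AEBP1 siRNA 2 were the lowest libraries. TNFAIP3, the gene of A20, was at 88, 105 and 130 CPM in the AEBP1 siRNA libraries, against 133, 132 and 109 CPM in the scrambled libraries (log2 fold change -0.21, SE 0.156). NFKBIZ, an inducible nuclear member of the IkB family, was at 33.5, 45.8 and 53.3 CPM in the AEBP1 siRNA libraries, against 58, 52.8 and 41.2 CPM in the scrambled libraries (log2 fold change -0.20, SE 0.189). In both, AEBP1 siRNA 1 was lowest, and AEBP1 siRNA 3 was close to scrambled 2. NFKBIE, the gene of IkB-epsilon, ranged from 61.5 to 85.6 CPM and from 56 to 99.8 CPM in the AEBP1 siRNA and scrambled libraries. NFKBIB, the gene of IkB-beta, ran the other way at 131, 97.8 and 78.8 CPM in the AEBP1 siRNA libraries, against 76.9, 78.1 and 97.8 CPM in the scrambled libraries (log2 fold change 0.28, SE 0.187). Here AEBP1 siRNA 1 was highest and AEBP1 siRNA 3 lay with scrambled 1 and 2.

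The CXC chemokines, ligands that attract neutrophils, were close between the labelled groups. CXCL8 (ENSG00000169429) was at 539, 523 and 594 CPM in the AEBP1 siRNA libraries, against 657, 559 and 432 CPM in the scrambled libraries. The highest and the lowest library both carried the scrambled label, and the log2 fold change was 0.0075 (95% interval -0.34 to 0.36). CXCL1 was at 50.1, 37.7 and 49.5 CPM in the AEBP1 siRNA libraries, against 47.4, 41.6 and 38.2 CPM in the scrambled libraries. CXCL2, CXCL3 and CXCL5 had log2 fold changes of 0.11, 0.093 and 0.056, and CXCL6 of -0.072. Estimates were thus higher for 5 of the 6 and lower for 1, none of them called. With the libraries numbered 3 left out of both groups, CXCL1, CXCL2, CXCL3, CXCL5 and CXCL8 were at -0.018, -0.018, -0.14, -0.070 and -0.20, all below 0.

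The CC chemokines attract monocytes and lymphocytes. CCL2, the monocyte chemoattractant long tied to stellate cells, was at 9.67, 10.4 and 15 CPM in the AEBP1 siRNA libraries, against 19.2, 12.6 and 7.35 CPM in the scrambled libraries. Scrambled 1 and AEBP1 siRNA 3 were highest and scrambled 3 lowest (log2 fold change -0.15, SE 0.331). CCL5, which attracts T cells, was at 6.13, 3.7 and 5.74 CPM in the AEBP1 siRNA libraries, against 7.18, 4.51 and 4.15 CPM in the scrambled libraries. CCL20, the ligand of CCR6, had 18, 12 and 26 counts in the AEBP1 siRNA libraries, against 27, 59 and 14 counts in the scrambled libraries. CCL7 had 0, 9 and 8 counts in the AEBP1 siRNA libraries, against 6, 2 and 0 counts in the scrambled libraries, and was the only member that did not pass the filter.

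The cytokines ranged from CSF2, which differed widely between libraries, to CSF1, which hardly did. CSF2, the gene of the granulocyte-macrophage growth factor, was at 5.03, 4.15 and 11.3 CPM in the AEBP1 siRNA libraries, against 12.2, 11 and 2.97 CPM in the scrambled libraries. Its raw counts were 175, 156 and 468 in the AEBP1 siRNA libraries and 502, 543 and 130 in the scrambled libraries. Scrambled 3 lay with AEBP1 siRNA 1 and 2, and AEBP1 siRNA 3 with scrambled 1 and 2. The highest library was 4.12 times the lowest, and both were labelled scrambled. Its log2 fold change, -0.35, came with a 95% interval from -1.59 to 0.89. The SD of its log2 level over the 6 libraries, 0.879, was above that of 99.4% of the 11594 genes averaging 5 CPM or more.

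IL6, the inducer of the hepatic acute phase response, was at 48.4, 44.5 and 66.8 CPM in the AEBP1 siRNA libraries, against 66.1, 58.9 and 36.7 CPM in the scrambled libraries. LIF, a cytokine of the same family, was at 68.6, 78.2 and 113 CPM in the AEBP1 siRNA libraries, against 108, 108 and 64.7 CPM in the scrambled libraries. In both genes scrambled 3 was again the lowest library and AEBP1 siRNA 3 the highest. CSF3, the granulocyte growth factor, ranged from 9.7 to 13 CPM and from 8.9 to 13.6 CPM in the AEBP1 siRNA and scrambled libraries. CSF1, the macrophage growth factor, was at 89.7, 84.2 and 84.2 CPM in the AEBP1 siRNA libraries, against 89.3, 82.1 and 77.4 CPM in the scrambled libraries, and its log2 fold change of 0.053 had a 95% interval of -0.16 to 0.27.

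**Figure D2:**
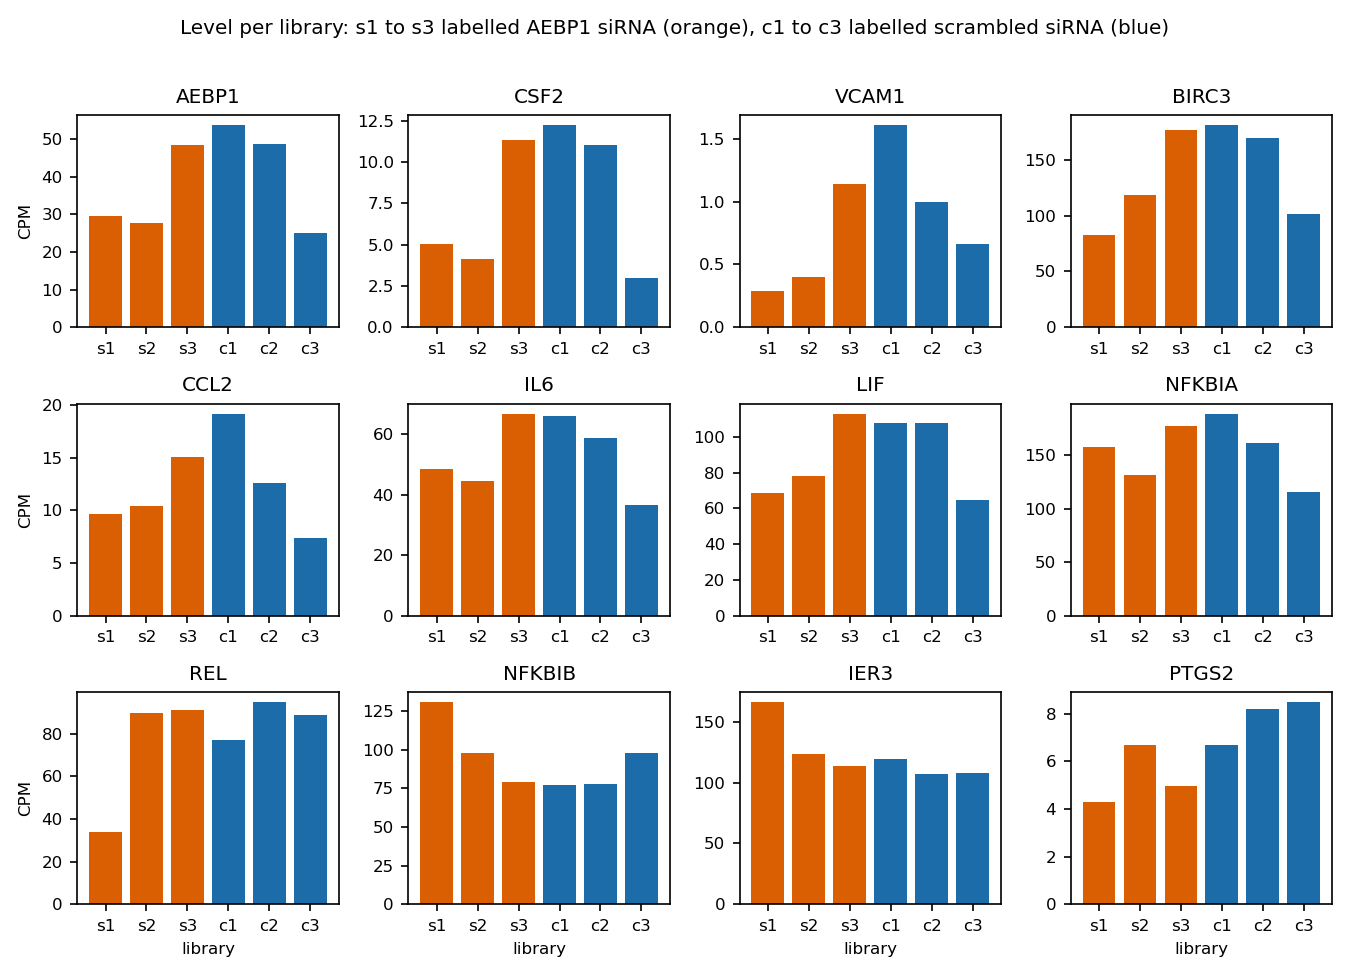
CPM in each library of AEBP1 and of 11 of the genes, with bars for the libraries labelled AEBP1 siRNA (s1 to s3, orange) left of those labelled scrambled siRNA (c1 to c3, blue). CSF2 is at 2.97 CPM in scrambled 3 and 11.3 CPM in AEBP1 siRNA 3, and REL is low in AEBP1 siRNA 1 at 33.7 CPM. The 11 genes are a selection, and steady members such as RELA and CSF1 are not drawn.

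Of the adhesion molecules, ICAM1 was at 441, 410 and 526 CPM in the AEBP1 siRNA libraries, against 535, 499 and 387 CPM in the scrambled libraries (log2 fold change -0.045, SE 0.149). VCAM1 had 10, 15 and 47 counts in the AEBP1 siRNA libraries, against 66, 49 and 29 counts in the scrambled libraries, which is 0.288, 0.399 and 1.14 CPM against 1.61, 0.996 and 0.662 CPM. AEBP1 siRNA 3 lay between scrambled 1 and 2, so the groups overlapped. Its estimate of -0.82 was the lowest of the set and had a 95% interval of -2.16 to 0.52.

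Among the other targets, BIRC3, which encodes an inhibitor of apoptosis that acts in tumour necrosis factor signalling, was at 82.4, 119 and 177 CPM in the AEBP1 siRNA libraries, against 181, 169 and 101 CPM in the scrambled libraries. The order of the libraries was close to that of CSF2, with a log2 fold change of -0.25 (SE 0.298). TRAF1, an adaptor that binds such inhibitors, ranged from 97.9 to 137 CPM and from 89.6 to 143 CPM in the AEBP1 siRNA and scrambled libraries. TNFAIP2 was at 126, 130 and 177 CPM in the AEBP1 siRNA libraries, against 190, 167 and 125 CPM in the scrambled libraries. It too was high in AEBP1 siRNA 3 and low in scrambled 3.

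SOD2, the mitochondrial superoxide dismutase, was at 296, 364 and 356 CPM in the AEBP1 siRNA libraries, against 392, 343 and 317 CPM in the scrambled libraries. A second row of the table also carried the symbol SOD2 (ENSG00000285441), with at most 9 counts in a library, and was not used. IER3 was at 166, 123 and 113 CPM in the AEBP1 siRNA libraries, against 119, 107 and 108 CPM in the scrambled libraries (log2 fold change 0.27, SE 0.149). AEBP1 siRNA 1 was its highest library. PTGS2, the inducible prostaglandin synthase, had the smallest p of the set. It was at 4.29, 6.70 and 4.96 CPM in the AEBP1 siRNA libraries, against 6.70, 8.19 and 8.49 CPM in the scrambled libraries. The groups met at AEBP1 siRNA 2 and scrambled 1, and scrambled 3 was its highest library, unlike for the other members. Its log2 fold change was -0.55, 95% interval -1.02 to -0.078 (edgeR unadjusted p = 0.0274, adjusted p = 0.991), and an exact two-sided permutation test on CPM gave p = 0.2.

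The members varied more between libraries than genes at large, and mostly in a common order that was not that of the labels. Over the 30 members averaging 5 CPM or more, the median SD of log2 CPM over the 6 libraries was 0.244, against 0.16 over all 11594 such genes. Relative to each gene's mean over the 6 libraries, the median member was at -0.020, -0.16 and 0.17 on the log2 scale in AEBP1 siRNA 1, 2 and 3, and at 0.21, 0.055 and -0.23 in scrambled 1, 2 and 3, over the 31 members averaging 1 CPM or more. For all genes with that mean the medians lay between 0.0014 and 0.012. Scrambled 3 was the lowest library for 18 of the 31 members (58.1%) and for 17.5% of all such genes. Scrambled 1 was the highest for 19 of the 31 (61.3%) and for 12.1% of all such genes. In bulk RNA, fewer cells with a transcript and less transcript per cell cannot be told apart.

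**Figure D3:**
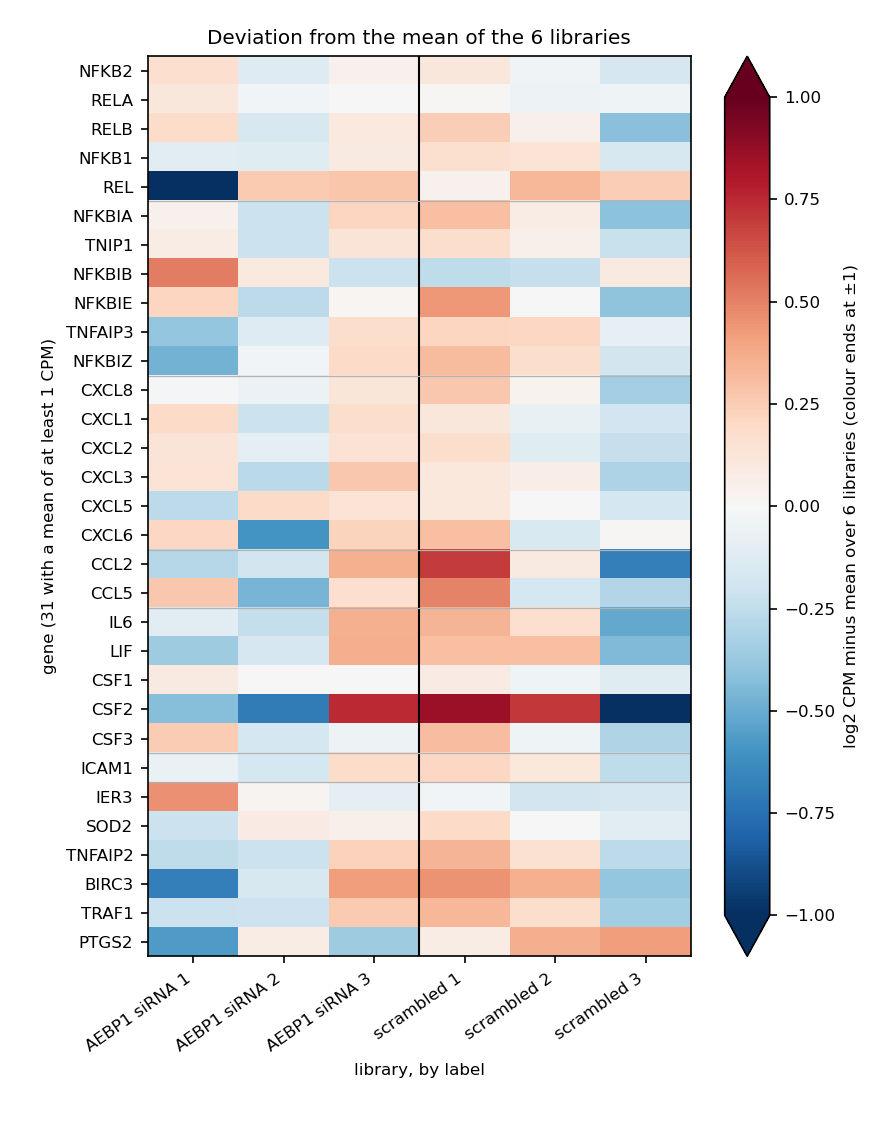
Deviation of log2 CPM from the mean of the 6 libraries for the 31 genes averaging 1 CPM or more, the libraries labelled AEBP1 siRNA left of the line and those labelled scrambled siRNA right of it; red is above and blue below the mean. Most rows are blue in scrambled 3 and red in AEBP1 siRNA 3 and scrambled 1, while NFKBIB, REL and PTGS2 are red in scrambled 3.

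Scrambled 3 was among the 3 lowest libraries for 29 of the 31 members, and AEBP1 siRNA 2 for 25. AEBP1 siRNA 1 was among them for 17 and scrambled 2 for 15, while AEBP1 siRNA 3 was for 4 and scrambled 1 for 3. For all genes with that mean the share lay between 49.2% and 51.4% in each library. AEBP1 itself was lowest in scrambled 3, then AEBP1 siRNA 2, then AEBP1 siRNA 1. The library AEBP1 siRNA 1, which stood apart in its transcriptome, was highest for 6 of the 31 members (19.4%) and lowest for 7 (22.6%). Among all genes with that mean it was highest for 34.57% and lowest for 33.99%. The members were thus at either extreme in this library less often than genes at large. The part of the AEBP1 level in the common order of the libraries was not tested.

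**Figure D4:**
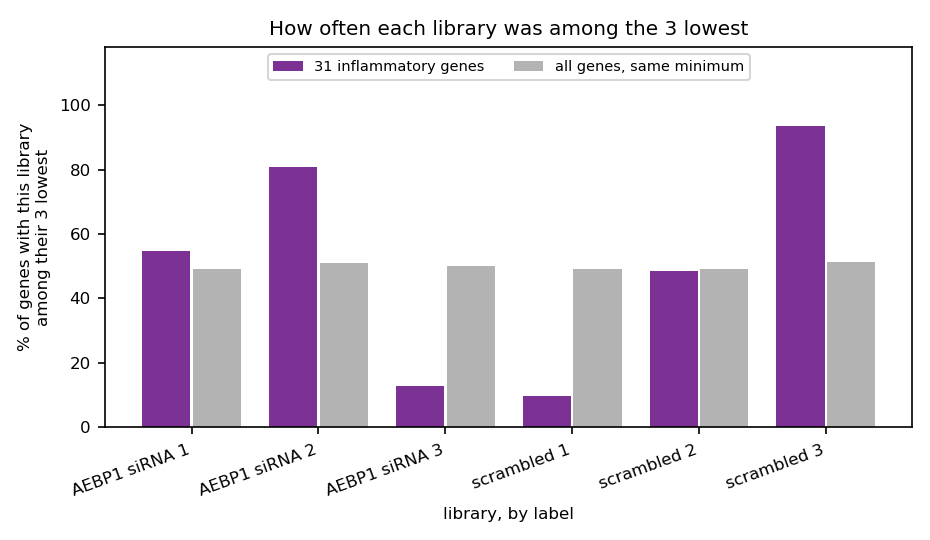
Percent of genes for which each library was among the 3 lowest of the 6, for the 31 members (purple) and for all genes with the same minimum level (grey), with the libraries labelled AEBP1 siRNA left of those labelled scrambled siRNA. Scrambled 3 reaches 93.5% and scrambled 1 only 9.68% of the members, while the grey bars stay between 49.2% and 51.4%.

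Because AEBP1 went against the label in the libraries numbered 3, the comparison is also given without them, with AEBP1 siRNA 1 and 2 against scrambled 1 and 2. With all 6 libraries the log2 fold change of AEBP1 was -0.27 (95% interval -0.97 to 0.43, adjusted p = 0.991 by edgeR). Without the libraries numbered 3, left out because of their AEBP1 level, it was -0.83 (adjusted p = 0.378 by edgeR), a value that depends on that choice. Again 0 of 33 members were called by edgeR, where 0.00614% of 16285 genes were, and the lowest adjusted p of the set was 0.324, that of CSF2. An unadjusted p under 0.05 was found for 11 of 33 members, 10 lower and 1 higher in the AEBP1 siRNA libraries, and for 4.7% of all genes. Estimates were lower for 29 of 33 members and for 50.9% of all genes, with medians of -0.25 and -0.0047. These counts and medians depend on that choice too. The libraries left out had medians for the set of 0.17 (AEBP1 siRNA 3) and -0.23 (scrambled 3) in the profile above. Members mostly shared an order of libraries and are not separate observations, so the shares of all genes are no test of the set.

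Among the members with an unadjusted p under 0.05 without the libraries numbered 3, the lowest estimates were those of VCAM1 at -1.91 (SE 0.532) and CSF2 at -1.34 (SE 0.207). BIRC3 was at -0.80 (SE 0.202), CCL2 at -0.66 (SE 0.246) and LIF at -0.55 (SE 0.134). NFKBIZ, TNFAIP2, TRAF1, TNFAIP3 and IL6 lay between -0.48 and -0.43. CCL20 at -1.15 (SE 0.597), REL at -0.48 (SE 0.433) and PTGS2 at -0.44 (SE 0.280) were as low or lower but had larger p. NFKBIB, at 0.56 (SE 0.174), was the member with a higher estimate and an unadjusted p under 0.05. RELA at 0.065 and CSF1 at 0.021 stayed near 0. The choice of these 4 libraries rests on the measured level of AEBP1, and the libraries left out are the AEBP1 siRNA library with the highest and the scrambled library with the lowest median for the set.

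**Figure D5:**
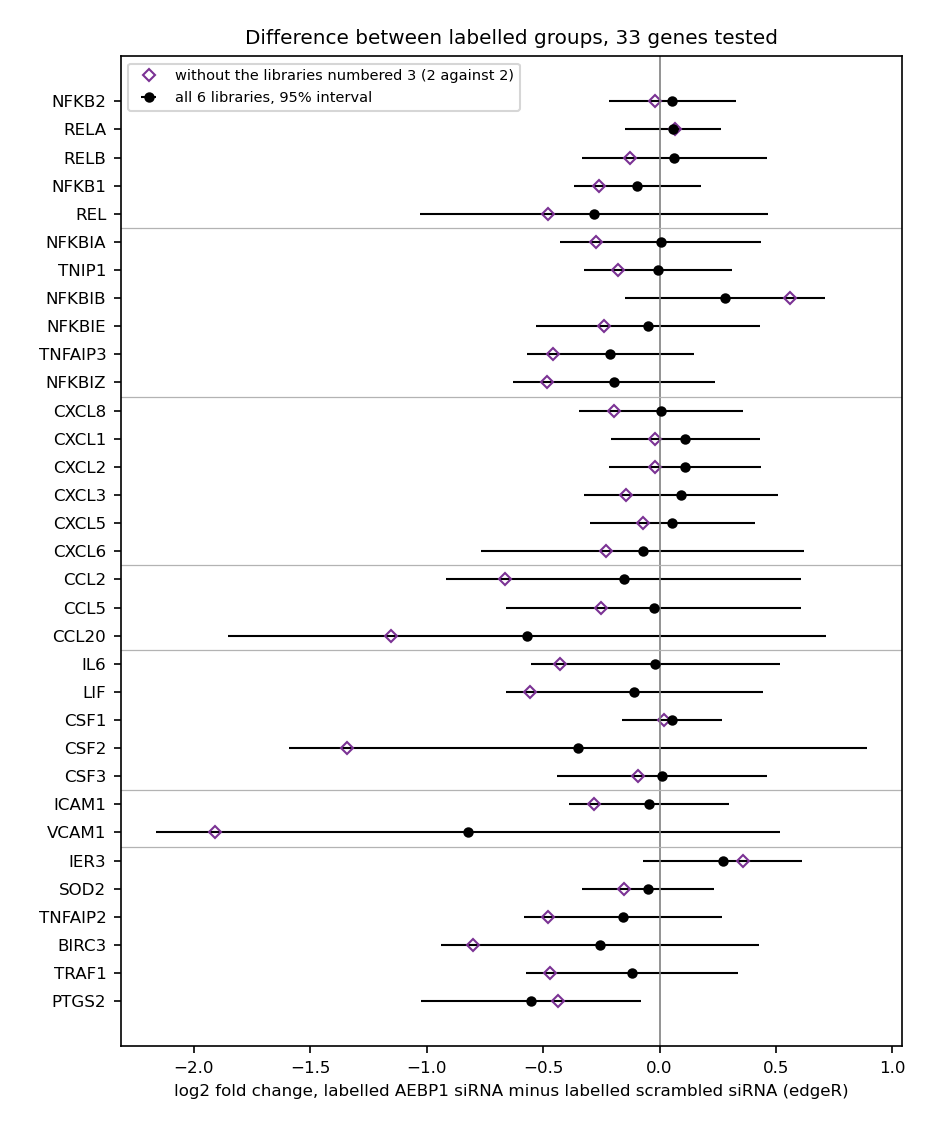
Log2 fold change, labelled AEBP1 siRNA minus labelled scrambled siRNA, of the 33 genes tested with edgeR; dots with 95% intervals use all 6 libraries and open diamonds leave out the libraries numbered 3 of both groups. With all libraries only the interval of PTGS2 leaves out 0, and without the libraries numbered 3 most estimates lie further left, VCAM1 at -1.91 and CSF2 at -1.34. Those libraries were left out because of their AEBP1 level, and the shift depends on that choice.

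The rest of the pathway was looked at with 105 further genes in 6 lists, of which 82 passed the filter. None was called by edgeR in either direction, 0 had an unadjusted p under 0.05, and the groups did not overlap for 3 of the 82, where 5.93% of all genes did not. The kinases and adaptors that carry the signal to the IkB proteins were all tested, 25 of 25, with a median log2 fold change of -0.0057. Those with the smallest p were TICAM1, the adaptor of the double-stranded RNA receptor TLR3, at 22.5 CPM ± 1.62 and 19 CPM ± 1.53 (SD, n = 3 each) in the AEBP1 siRNA and scrambled libraries, and TRAF2, a ubiquitin ligase of tumour necrosis factor signalling, at 117 CPM ± 20.7 and 102 CPM ± 4.67. Upstream receptors had a median of -0.0038 over 12 genes, with TNFRSF12A, the receptor of the cytokine TWEAK, at 217 and 193 CPM and TLR6 at 0.744 and 1.58 CPM. Other feedback regulators had a median of -0.057 over 14 of 15 genes, with NLRC5 at 17.6 and 20.3 CPM and N4BP1 at 29.7 and 32.6 CPM.

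Other ligands and chemokines were mostly too low to test, with 8 of 21 passing the filter and a median of -0.0052. CXCL11 was at 0.827 and 1.38 CPM and lymphotoxin alpha (LTA) at 0.963 and 0.602 CPM in the AEBP1 siRNA and scrambled libraries. Among receptors for the products of the set, 8 of 17 passed, with a median of -0.12. They included IL6ST, the shared signalling receptor of IL6 and LIF, at 845 CPM ± 253 and 966 CPM ± 35.5, and ACKR3, an atypical chemokine receptor, at 2.17 and 1.73 CPM. The receptors CXCR1, CXCR2, CCR2, CSF2RA and CSF3R of the ligands described above did not pass the filter. Immediate-early genes, which respond to serum and handling, had higher estimates for 12 of 15 and a median of 0.16, where 8031 of all 16250 genes had higher estimates, and none of the 15 passed the threshold. IER2 was at 79 CPM ± 13.8 and 64.4 CPM ± 6.98 and DUSP1, a phosphatase of stress kinases, at 77.9 CPM ± 12.4 and 65.3 CPM ± 6.88, both highest in AEBP1 siRNA 1 as IER3 was.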

How the data were processed

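RNA libraries of LX-2 cells were made from total RNA with an mRNA kit, per the labels' protocols. The authors deposited 1 table with raw counts and FPKM per gene and library, per the file headers. The submitters' processing notes name the build hg19. Aligner, counter, annotation and strand setting: not given in the sources used here. Antisense or overlapping genes may share counts. Of the lines, 17 without values were left out.

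Counts were filtered with filterByExpr (16250 genes kept), scaled by trimmed mean of M values and tested with edgeR 4.0.16 (quasi-likelihood, group as the only term, Benjamini-Hochberg adjustment over all genes tested, threshold 0.05) in R 4.3.3. CPM values use the scaled library sizes. The SE of an estimate was its absolute size over the root of the F statistic. Exact permutation tests of 3 against 3 cannot go below p = 0.1. The test was also run on simulated counts with each gene drawn independently under known labels. That run says nothing about members that share an order of libraries, an outlying library or exchanged labels. No pair of libraries agreed within sampling noise (chi-square per degree of freedom at least 8.02), so all 6 were kept.

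Alternatives were DESeq2 1.42.0, limma 3.58.1 (voom, and log2 of FPKM plus 1 or 0.1), other scalings and filters, a replicate block, each library left out, and both libraries numbered 3 left out. The gene set, the lists and the alternatives were chosen with earlier results of these data known. Values in each library were to be given for the pair of members of each role with the highest CPM, for called members, and for the 6 with the smallest p. CSF2, IL6, BIRC3, REL, RELA, CCL20, CCL7 and CSF2's raw counts were added after their values were seen, as were the receptors named as not passing the filter. From each further list the pair of genes with the smallest p was named.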

Additional observations from a re-analysis of the deposited data

How the results depend on the processing

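No member was called under any alternative run, and the lowest adjusted p of a member over them was 0.324. Genes called in the whole table, 1 with all libraries, were 6 with DESeq2, 3 with no filter, 2 with limma-voom, 3 with log2(FPKM + 0.1), 2 with a replicate block, 0 at an adjusted p under 0.01, and 0 to 2 without single libraries. Members with an unadjusted p under 0.05 were 0 to 4 without single libraries, 0 with log2(FPKM + 0.1) and 11 without the libraries numbered 3, where the member median was -0.25. The values without the libraries numbered 3 depend on that choice. The same-numbered libraries gave no sign of pairing, with correlations of their deviations of 0.177, 0.0468 and -0.15, and the replicate block left 0 members called. Member promoters with a match went to 73.7% for GGGA, any 4 bases and CC, to 100% for GG, any 6 bases and CC, and to 26.3% for the exact run of CXCL1, the last chosen after seeing the data.

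Of 525 member estimates under alternatives, 59 had the opposite sign, all of them uncalled. Without the libraries numbered 3 these were NFKBIA (-0.27), CXCL8 (-0.20), CXCL3 (-0.14), RELB (-0.13), CSF3 (-0.091), CXCL5 (-0.070), CXCL1 (-0.018), CXCL2 (-0.018) and NFKB2 (-0.018). With log2(FPKM + 1) and log2(FPKM + 0.1) they were IL6 (0.014 and 0.015), CCL5 (0.0047 and 0.0081), TNIP1 (0.0053 and 0.0054) and SOD2 (0.0022 and 0.0017). IL6 was at 0.0075 with limma-voom and TNIP1 at 0.011 with upper quartile scaling. Without single libraries, estimates crossed 0 for CCL2 (-0.44 to 0.23), CCL20 (-0.92 to 0.0064), CCL5 (-0.17 to 0.26), CSF3 (-0.12 to 0.19), CXCL3 (-0.028 to 0.23), CXCL5 (-0.030 to 0.19), CXCL6 (-0.21 to 0.15), CXCL8 (-0.14 to 0.16), ICAM1 (-0.17 to 0.052), IL6 (-0.23 to 0.16), LIF (-0.35 to 0.034), NFKB2 (-0.018 to 0.13), NFKBIA (-0.17 to 0.17), NFKBIE (-0.23 to 0.19), REL (-0.49 to 0.057), RELB (-0.10 to 0.21), SOD2 (-0.12 to 0.038), TNIP1 (-0.11 to 0.091) and TRAF1 (-0.30 to 0.026). The cause was not tested. With 3 libraries a group, the counts of VCAM1, CCL20 and CCL7 limit what could be seen of them.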
